A study of Mus musculus with 16 samples.

Results

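Super-enhancers are stretches of chromatin in which several strongly acetylated enhancers lie close together, and in macrophages such stretches are known for marking genes of cell identity and of the inflammatory response. Acetylation of histone H3 at lysine 27 (H3K27ac) marks active enhancers and promoters, trimethylation at lysine 4 (H3K4me3) marks active promoters, and trimethylation at lysine 27 (H3K27me3) marks chromatin silenced by Polycomb. Lactylation at lysine 18 (H3K18la) is a mark derived from lactate. The regions described here are 500 stitched clusters of H3K27ac, of 2891 such clusters in all. They were chosen by their H3K27ac signal, so their H3K27ac level and their lack of H3K4me3 are properties of the rule and not findings.

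The data are CUT&Tag peak lists of macrophages sorted as CD45+CD11b+F4/80+CD64+ cells from the calf muscle of the ischemic limb. The mice were C57BL6J wild type males of 8 to 12 weeks whose femoral artery had been ligated, and every library came from injured muscle. There were 2 libraries for each of the 4 marks at 4 days post injury (dpi) and 2 at 2 dpi, 16 in all, with no uninjured control in the comparison. Libraries are sorted cell populations, so a shift in the mix of macrophage states and a change within each cell cannot be told apart. No gene expression was used here, and the labelled cell type could therefore not be checked against marker genes.

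The clusters came from the 3 H3K27ac lists whose library names share a prefix (S143), which are 4 dpi replicate 2 and both 2 dpi replicates. These lists merged into 39547 regions, of which 16083 were called in all 3 lists. An H3K4me3 peak overlapped 77.7% of the shared regions, and the 3585 regions left were stitched where gaps were 12.5 kb or less. The score of a cluster is the mean, over the 3 lists, of its percentage of the summed peak signal of the list. The 500 highest scores were taken. The 4 dpi replicate 1 library of H3K27ac carries another prefix (S100) and did not enter the rule. It stands apart from the others, since its peaks covered 205 Mb, against 37.8 to 65.3 Mb in the other 3 lists.

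The 500 clusters were made of 1015 H3K27ac regions with a summed length of 4.06 Mb. The other 2391 clusters held 2570 regions with 6.48 Mb. Of the 500, 168 were a single region, 205 joined 2 regions, 86 joined 3, 31 joined 4 and 10 joined 5 or more. The single regions are merged peaks of the 3 lists and not stitched groups, so the label super-enhancer-like rests on their signal alone. Among the other clusters 2213 were single regions. The median length under H3K27ac regions was 7.12 kb in the 500 clusters and 2.42 kb in the others, and the median span was 10.3 kb in the 500 and 2.42 kb in the others.

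**Figure D1:**
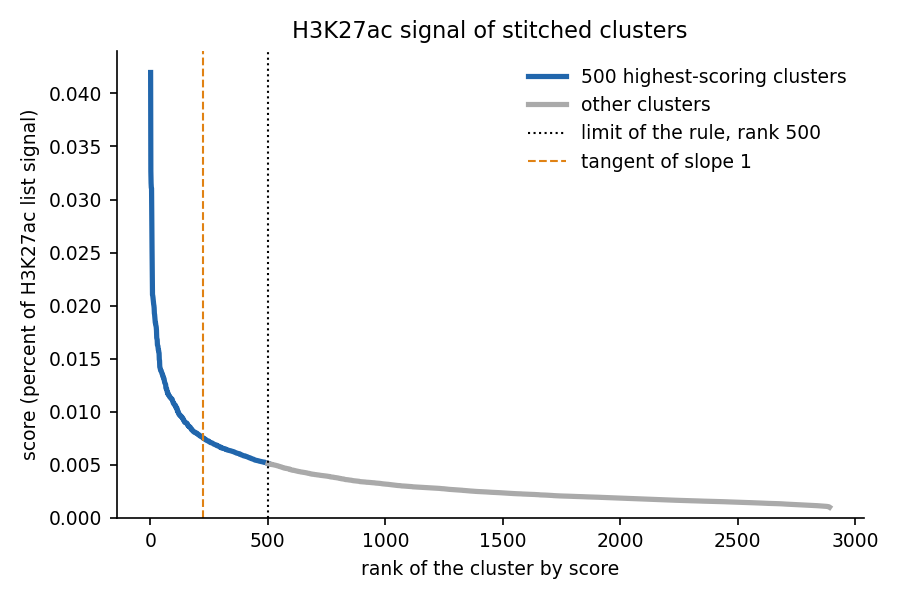
Score of each stitched cluster (percent of the H3K27ac signal of a list, mean of 3 lists) against its rank, highest first. The 500 highest-scoring clusters are in blue, the others in grey, and the point where the scaled curve has slope 1 falls at 226 clusters, well inside the 500.

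The curve of ranked scores had no step at the limit of 500. The 3 clusters just inside it, at chr18:82530371-82541745, chr17:43368116-43385033 and chr11:70562046-70572466, scored 0.00514%, 0.00513% and 0.00513%. The 3 just outside, at chr9:75102116-75104959, chr4:53226829-53239652 and chr11:81905033-81908256, scored 0.00513%, 0.00512% and 0.00512%. These values do not separate the clusters on either side. The point of slope 1 on the scaled curve, a common cut for super-enhancers, left 226 clusters with a score of at least 0.00747%. Taken in single lists, the same cut left 220 to 260 clusters.

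The highest score belonged to a cluster of 21.8 kb at chr8:127582375-127604184, which is rank 1. Coordinates refer to GRCm39, the mouse build named by the labels. Its H3K27ac signal made up 0.0461% of the list at 4 dpi (replicate 2), and 0.0350% and 0.0448% of the 2 lists at 2 dpi. H3K18la peaks covered 60.5% and 75.7% of its H3K27ac length at 4 dpi, and 71.8% and 59.1% at 2 dpi. Averaged over the 4 libraries it held more H3K18la signal than any other of the 2891 clusters, with 0.0855% and 0.0906% of the lists at 4 dpi and 0.0685% and 0.0632% at 2 dpi. The nearest H3K4me3 peak lay 2.08 kb away.

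The 10 highest-scoring clusters spanned 19.1 to 36.4 kb and were at least partly lactylated in every H3K18la library. Rank 2 at chr11:121607949-121644362 scored 0.0326%, and 50.03% and 55.8% of its length was under H3K18la at 4 dpi, against 74.6% and 61.0% at 2 dpi. Its neighbour at chr11:121681296-121700407, rank 6, is one uninterrupted region of 19.1 kb and had 36.6% and 75.2% under H3K18la at 4 dpi, against 93.6% and 69.7% at 2 dpi. In both clusters the libraries of one time point differed enough that the level of each time point is known only roughly. Rank 3 at chr5:53534261-53563473 lay 103 kb from the nearest H3K4me3 peak, the farthest of the 10. Ranks 4 (chr19:9028065-9061385), 5 (chr17:71556614-71586416), 7 (chr14:31106548-31131995) and 10 (chr11:119682918-119717392) had between 41.7% and 83.7% of their length under H3K18la over the 4 libraries. Rank 8 at chr8:71736082-71766202 had the least of the 10, with 30.3% and 44.3% at 4 dpi and 41.3% and 39.3% at 2 dpi.

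The widest cluster, of 55.0 kb at chr6:134023333-134078377, and a cluster at chr18:61223203-61268528 joined 7 regions each. H3K18la covered 18.7% and 27.6% of the widest at 4 dpi, and 38.1% and 18.2% at 2 dpi. The chromosome 18 cluster had 11.9% and 23.7% at 4 dpi, and 26.4% and 8.51% at 2 dpi. Both are among 40 of the 500 clusters whose span, though not their regions, held an H3K4me3 peak, against 15 of the 2391 others. By the rule only a cluster of 2 or more regions can hold one. Such clusters were 332 of the 500 and 178 of the others. The shares, 8.0% of the 500 and 1.90% of all clusters, therefore cannot be read apart from the rule. In the widest cluster and the chromosome 18 cluster, the share under H3K18la was below the mean of the 500 in every library.

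Several of the 500 clusters lay side by side. Of them, 159 had another within 100 kb, and 14 runs held 3 or more. The same counts were not made for other sets of clusters, so they are not read as a trait of the 500. The longest run, of 5 clusters at chr8:127409764-127650231, held ranks 1, 22, 41, 112 and 239, and rank 9 (chr8:127262490-127285546) lay on the same chromosome outside it. All 5 carried H3K18la in all 4 libraries. Rank 41, one region of 6.37 kb, had 95.6% and 97.8% of its length under H3K18la at 4 dpi, and 91.1% and 87.6% at 2 dpi. Rank 112, of 3 regions, had 31.2% and 78.3% at 4 dpi, and 89.7% and 55.8% at 2 dpi. By chromosome, 51 of the 500 lay on chromosome 2, which held 263 of all clusters. Chromosome X held 2 of the 500 and 23 of all clusters, and Y none of the 500 and 1 of all.

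The clusters can be asked whether the H3K27ac library left out of the rule ranks them alike. All 500 held a peak in the 4 dpi replicate 1 library, against 96.3% of all clusters. This library covered 95.7% of the length of the 500 and 92.7% of that of the other clusters. Of the 500, 398 (79.6%) were among the 500 highest by this library, against 17.3% of all clusters. Among the 1000 highest were 481 (96.2%), against 34.6% of all clusters. The score and this ranking both sum signal over a cluster, and over all clusters the score rose with length (Spearman's rho = 0.84). What part length has in the shared ranking was not tested. The coverage of this library separates the 2 sets little, and so did that of the 3 lists of the rule. In 4 dpi replicate 2 it was 79.2% in the 500 and 75.3% in the others. At 2 dpi it was 79.8% and 51.8% in the 500, and 77.8% and 49.1% in the others. The 500 clusters took 2.26% of the summed signal of the library left out, against 4.27% to 4.40% in the 3 lists of the rule.

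H3K18la peaks covered a large part of the length of the 500 clusters, while H3K27me3 covered less than 1%. The H3K18la share was 40.5% and 53.1% at 4 dpi, and 60.1% and 45.6% at 2 dpi. The H3K27me3 share was 0.432% and 0.628% at 4 dpi, and 0.195% and 0.0330% at 2 dpi. The 4 H3K18la libraries, with 49.8% ± 8.57 (SD), did not overlap the 4 H3K27me3 libraries, with 0.322% ± 0.262 (SD). The difference of 49.5 percentage points had p = 0.0286 by a two-sided exact permutation test, the smallest that 4 against 4 libraries allow. Adjusted over the 3 coverage comparisons it was 0.0857 and did not pass 0.05. The rule asks for H3K27ac, on the same lysine that H3K27me3 marks, so a low H3K27me3 share cannot be read apart from the rule. The difference was also not particular to the 500, since the other clusters had 40.7% ± 8.86 under H3K18la and 1.10% ± 0.287 under H3K27me3 (SD). The H3K18la lists covered 25.3 to 46.0 Mb of the genome, less than the H3K27me3 lists with 52.1 to 80.9 Mb.

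Compared with the other clusters, the 500 were more fully covered by H3K18la in 4 of 4 libraries. In the other clusters the share was 32.4% and 43.4% at 4 dpi, and 51.9% and 34.9% at 2 dpi. The mean difference of 9.15 percentage points had p = 0.125 by a two-sided exact sign-flip permutation test over the 4 libraries, which is the smallest this design allows, and the adjusted p was also 0.125. When the whole span with its gaps was used in place of the H3K27ac regions, the difference turned round to -1.31 points. For H3K27me3 the mean difference was -0.776 points, lower in the 500 in 4 of 4 libraries (exact permutation p = 0.125, adjusted 0.125). The other clusters had 1.31% and 1.35% under H3K27me3 at 4 dpi, and 1.00% and 0.734% at 2 dpi.

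**Figure D2:**
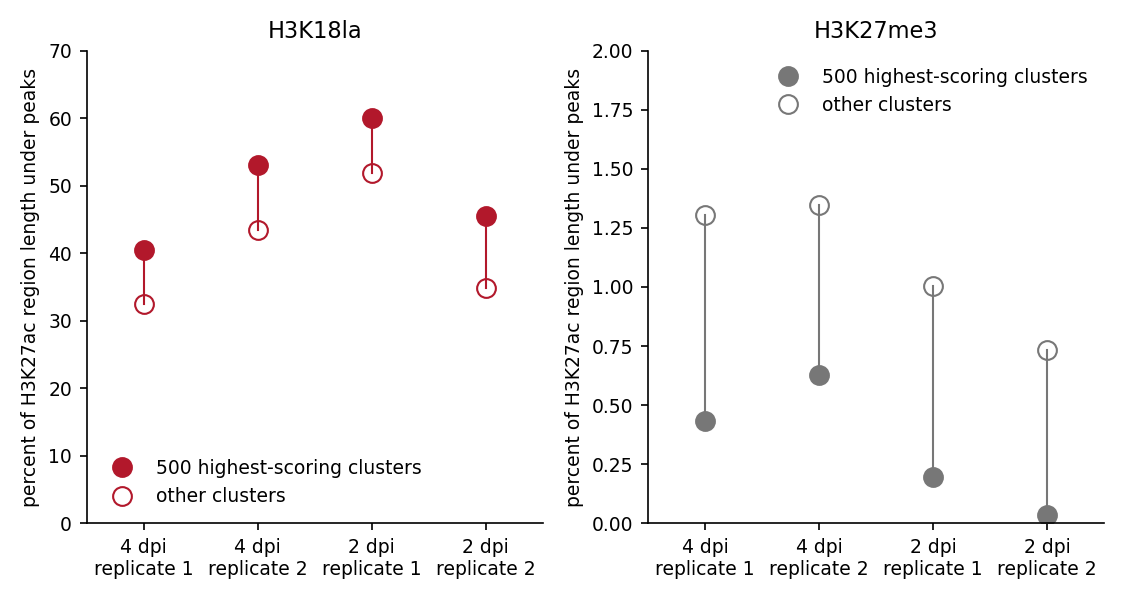
Percent of the H3K27ac region length under peaks of H3K18la (left) and H3K27me3 (right), one position per library, for the 500 highest-scoring clusters (filled) and the other clusters (open). The filled points of H3K18la, 40.5% to 60.1%, lie above the open ones in each library, and those of H3K27me3, 0.0330% to 0.628%, lie below.

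At 4 dpi H3K18la covered 46.8% ± 8.90 of the length of the 500 clusters, and at 2 dpi 52.8% ± 10.2 (SD, n = 2 libraries each). The replicates of each time point overlapped those of the other, and 2 against 2 libraries allow no exact permutation p below 0.333. The H3K27me3 values at 4 dpi were both above those at 2 dpi, but they rest on few clusters. The other clusters had the same order, with 1.31% and 1.35% at 4 dpi, and 1.00% and 0.734% at 2 dpi. The H3K27me3 lists also covered more of the whole genome at 4 dpi (79.8 and 80.9 Mb) than at 2 dpi (52.1 and 61.0 Mb). The 2 dpi replicate 1 library had the most H3K18la peaks (27578, against 15190 to 17578 in the others) and the highest share. The order did not hold throughout, as 2 dpi replicate 2 had the fewest peaks and a share of 45.6%. The lowest share, 40.5%, was that of 4 dpi replicate 1 with 15511 peaks. Whether the share depends on the length of the list was not tested. With the lists shortened to equal length, the mean difference between the 500 and the other clusters was 9.97 points.

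An H3K18la peak was present in all 4 libraries at 439 of the 500 clusters (87.8%) and at 1132 of the 2391 others (47.3%). The members are longer and offer more room for a peak, and what part length has in this difference was not tested. More than 50% of the length was under H3K18la in all 4 libraries in 163 of the 500 (32.6%) and in 555 of the others (23.2%), against 24.8% of all clusters. Within the 500, coverage hardly varied with rank. For this the share was taken per cluster and averaged over clusters, which is not the share of summed length given above. The mean was 54.0% ± 7.83 in ranks 1 to 100 and 49.8% ± 7.84 in ranks 401 to 500. In the next 100 ranks, outside the limit, it was 51.7% ± 8.79 (SD over 4 libraries). On this measure the mean of all 500 was 52.4%. Among the clusters of a single region, where no stitching is involved, the share was 45.8% and 60.02% at 4 dpi and 64.3% and 52.1% at 2 dpi for the 168 members. For the 2213 others it was 33.0% and 43.8% at 4 dpi, and 52.4% and 35.1% at 2 dpi.

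The amount of H3K18la signal followed the score more closely than the share of length did. Across the 500 clusters, which are not independent replicates and share their libraries, Spearman's rho of the score was 0.48 with the mean H3K18la signal and 0.03 with the mean share of length under H3K18la. Longer clusters had a higher score (rho = 0.72) and a smaller share of length under H3K18la (rho = -0.33). Of the 500, 330 (66.0%) were also among the 500 clusters with the most H3K18la signal, against 17.3% of all clusters. Over all clusters that signal also rose with length (rho = 0.48). Together the 500 took 6.08% to 7.60% of the summed signal of each H3K18la list.

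The extremes of H3K18la coverage were named by the share in the library where it was lowest. A single region of 2.82 kb at chrX:169113847-169116662 was covered over its whole length (100%) in each of the 4 libraries. The clusters at chr12:17555781-17561818, chr11:20995441-20999363, chr13:5653396-5665980 and chr18:4310532-4315619 had 88.8% to 100% in every library. At the other end, 4 of the 500 clusters held no H3K18la peak in any library, at chr8:20704982-20731576 (rank 70), chr13:6655573-6663034 (rank 218), chr5:110568407-110574159 (rank 454) and chr10:79902293-79928255 (rank 473). Rank 70 joined 5 regions and held 0.0129% of the H3K27ac signal at 4 dpi (replicate 2), and 0.0122% and 0.0110% at 2 dpi. These 4 clusters were among the 500 by the rule and had no H3K18la call. Ranks 454 and 473 scored 0.00541% and 0.00529%, near the lowest score of the 500, 0.00513%. In the H3K27ac library left out of the rule, rank 473 stood at place 1907 of all clusters. Peaks of that library covered 27.6% of its length. A peak list cannot show that H3K18la was absent. Rank 372, at chr2:44920199-44946828, had 10.3% under H3K18la in 2 dpi replicate 1 and none in the other 3.

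The cluster at chrX:169113847-169116662 (rank 133) and the one at chrX:169077790-169082640 (rank 134) had dense signal. Rank 133 held place 2 among all clusters by H3K18la signal per called base in 3 libraries and place 8 in 4 dpi replicate 1, where it had 144 and the densest of the other members 149. Per base under H3K18la peaks, rank 134 had 405 and 339 at 4 dpi, and 669 and 336 at 2 dpi, which was the highest of all clusters in each library. The median of the 500 was 47.5 and 31.4 at 4 dpi, and 24.1 and 19.8 at 2 dpi. The H3K27ac density of rank 134 was 46.7 in 4 dpi replicate 2, and 34.1 and 27.2 at 2 dpi, against medians of 7.80, 7.35 and 5.16 in the same libraries. The study's methods state that blacklisted peaks were removed, and whether this holds for the deposited lists was not tested. Leaving both clusters out left the H3K18la difference between the 500 and the other clusters at 9.10 points.

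H3K27me3 was called in at least 1 of 4 libraries at 10 of the 500 clusters, leaving 98.0% with no peak, against 97.0% of all clusters. None of the 500 had it in all 4 libraries, against 0.796% of all clusters. The fullest was rank 57 at chr1:88159173-88181710, of 22.5 kb, with 65.2% and 68.4% of its length under H3K27me3 at 4 dpi, and 16.1% and 0 at 2 dpi. It also had the highest score of all clusters in the H3K27ac library left out of the rule, and only 0 and 14.6% of its length was under H3K18la at 4 dpi and 26.4% and 0 at 2 dpi. Rank 91 at chr7:110383785-110398144 had 51.5% and 50.6% under H3K27me3 at 4 dpi, and no peak at 2 dpi. Its H3K18la coverage was 41.9% and 54.2% at 4 dpi, and 69.4% and 58.4% at 2 dpi. In rank 57 and rank 91 both 4 dpi libraries lay above both 2 dpi libraries. The share of all clusters with this order was not counted. Over the whole genome the H3K27me3 lists covered 79.8 and 80.9 Mb at 4 dpi, against 52.1 and 61.0 Mb at 2 dpi. The remaining 8 clusters with a peak had at most 40.4% in any library. Both clusters were picked after their values were seen.

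**Figure D3:**
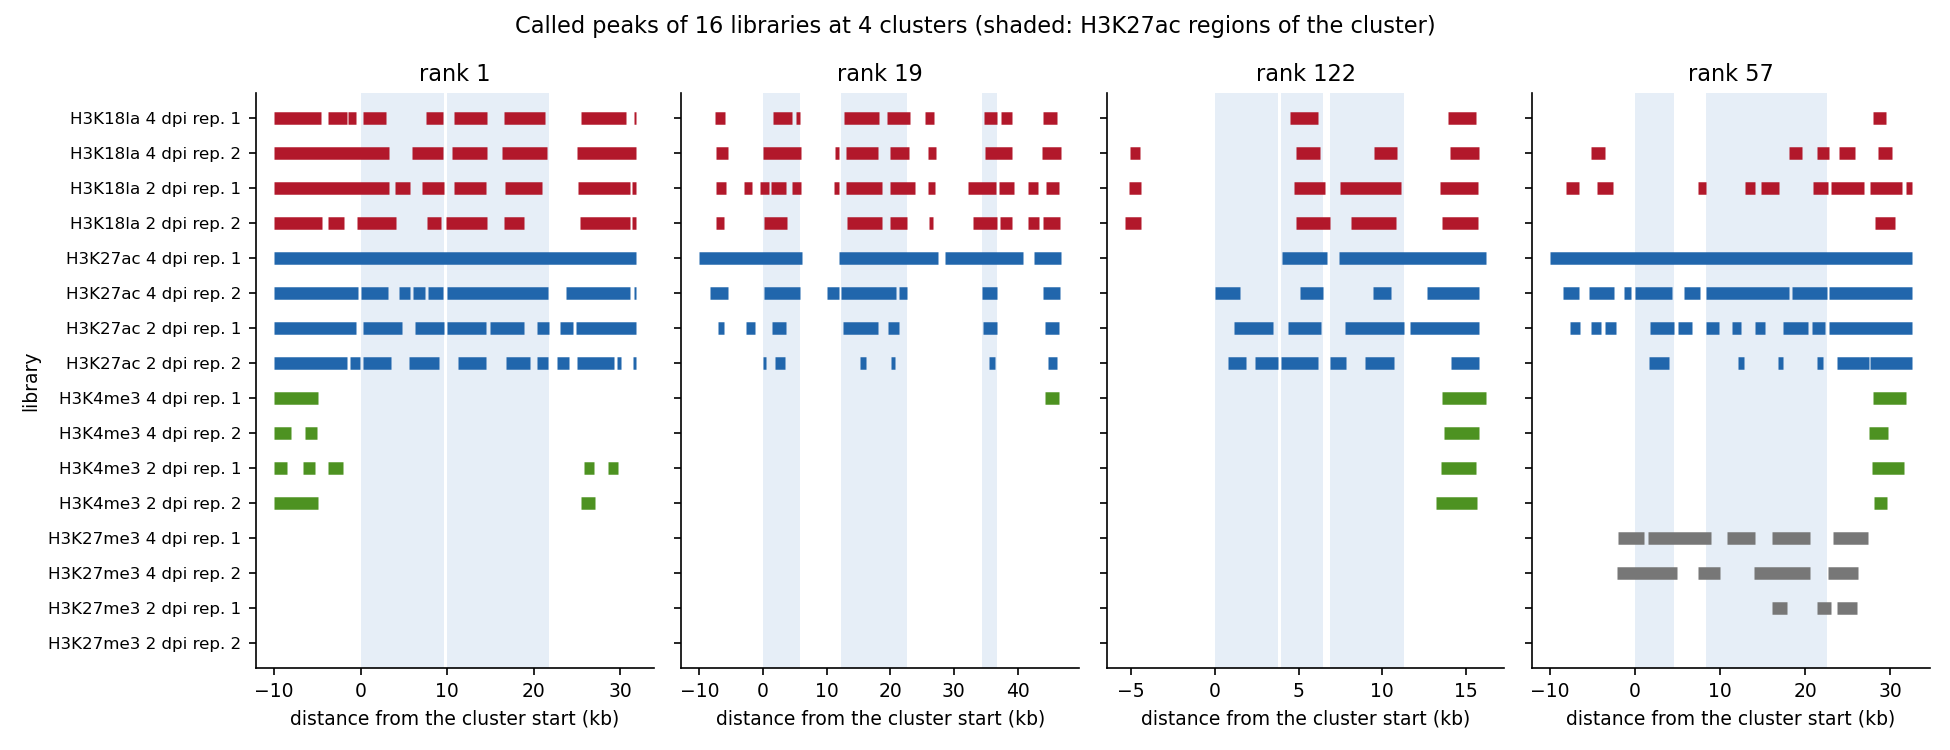
Called peaks of the 16 libraries (rows, bars) at the clusters of rank 1, 19, 122 and 57, against the distance from the cluster start in kb, with the H3K27ac regions of the cluster shaded. Rank 57 is the only one of the 4 with H3K27me3 peaks, which cover 65.2% and 68.4% of its regions at 4 dpi, and rank 122 has shorter H3K18la peaks at 4 dpi than at 2 dpi.

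The question of the time course is whether H3K18la at these clusters differs at 4 dpi from that at 2 dpi, the interval in which the study places the switch of macrophage polarisation. Signal was summed over the H3K27ac regions of each cluster, ranked within each library and turned into normal scores, so that only the standing of a cluster among the others is compared. A shift is the mean normal score at 4 dpi minus that at 2 dpi. The test used limma over the 1571 clusters with H3K18la in all 4 libraries, of which 439 are among the 500 highest. The filter keeps only clusters called at both time points. The 500 therefore have 61 members that were not tested.

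None of the 439 passed an adjusted p of 0.05 (0 called of 1571 in limma, a background of 0%), and the lowest adjusted p was 0.083. At an unadjusted p under 0.05, limma listed 89 of the 439 (20.3%), 41 above 0 and 48 below, against 15.8% of all 1571 clusters. Both 4 dpi libraries stood above both 2 dpi libraries in 102 of the 439 (23.2%), against a background of 23%. Both stood below in 109 (24.8%), against 23.8%. The 439 were near the background in either direction. When H3K18la regions of the whole genome were tested in place of clusters, limma called 11 of 9325 (0.118%), 2 of them at the 500 clusters (ranks 13 and 133), both lower at 4 dpi. In the 439 the median absolute shift was 0.30, with a median standard error of 0.23, and in the other tested clusters the median absolute shift was 0.38, with a standard error of 0.42.

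The 5 clusters with the lowest p on the side of higher H3K18la at 4 dpi were ranks 19, 66, 232, 461 and 97. They are described by their values, as none passed the adjusted threshold. The cluster at chr4:138952031-138964955 (rank 66), one region of 12.9 kb, was at percentiles 83.2 and 72.0 of H3K18la signal at 4 dpi, and at 18.7 and 25.2 at 2 dpi (shift 1.55 ± 0.35 SE, limma adjusted p = 0.137). H3K18la covered 29.5% and 25.9% of it at 4 dpi, and 13.7% and 13.8% at 2 dpi. Its H3K27ac signal was 0.0177% of the list in 4 dpi replicate 2, and 0.00860% and 0.0104% at 2 dpi. The cluster at chr1:128649318-128653386 (rank 461) was at percentiles 94.6 and 91.4 at 4 dpi, and at 75.3 and 69.4 at 2 dpi. That at chr15:58124344-58131780 (rank 232) was at 98.8 and 97.2 at 4 dpi, and at 89.7 and 91.0 at 2 dpi. The 2 time points did not overlap in any of these clusters, but the clusters were picked by their low p. Both 4 dpi libraries stood above both 2 dpi libraries in 23% of all tested clusters.

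The 5 on the side of lower H3K18la at 4 dpi were ranks 122, 133, 134, 431 and 13. The cluster at chr18:24239814-24251093 (rank 122) was at percentiles 57.9 and 56.6 at 4 dpi, and at 94.2 and 92.0 at 2 dpi (shift -1.31 ± 0.21 SE, limma adjusted p = 0.083). Its length under H3K18la was 15.8% and 26.3% at 4 dpi, and 50.2% and 40.4% at 2 dpi. H3K27ac in it was 0.00330% of the list in 4 dpi replicate 2, and 0.0116% and 0.0143% at 2 dpi. The cluster at chr10:93187960-93212409 (rank 13), of 4 regions, was at percentiles 95.4 and 97.9 at 4 dpi, and at 99.5 and 99.6 at 2 dpi. Rank 431 at chr1:92725478-92732056 was at 84.4 and 92.3 at 4 dpi, and at 98.6 and 97.9 at 2 dpi. Ranks 133 and 134 are the pair on chromosome X described above. With signal taken on the log2 scale after scaling by the median of the library, limma called 4 of the 439, ranks 13, 122, 133 and 134, all lower at 4 dpi (adjusted p = 0.0259 each). Over all 1571 clusters it called 7 (0.446%), and these were all lower as well.

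**Figure D4:**
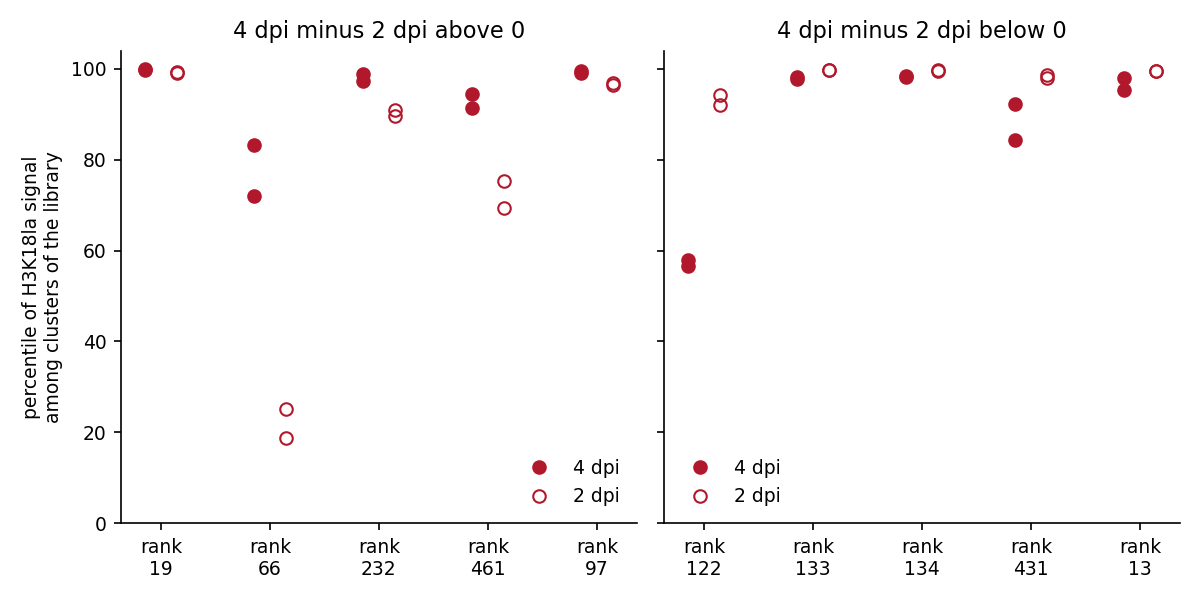
Percentile of H3K18la signal among the 1571 tested clusters of a library, for the 5 clusters with the lowest p above 0 (left) and below 0 (right), with 4 dpi filled and 2 dpi open. Rank 66 stands at 83.2 and 72.0 at 4 dpi and at 18.7 and 25.2 at 2 dpi, and the points of rank 122 run the other way.

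H3K27ac at 4 dpi can be compared only through replicate 2, because replicate 1 belongs to the other prefix. It was above both 2 dpi lists in 192 of the 500 clusters (38.4%), against a background of 33.4% of all clusters, and below both in 185 (37.0%), against 38.2%. This comparison of 1 library with 2 was not tested. The log2 ratio of the 4 dpi share to the mean 2 dpi share had an SD of 0.57 over the 500, and the ratio of the 2 dpi replicates had an SD of 0.43. The highest of the 3 lists was over 2 times the lowest in 74 of the 500 clusters. A single list therefore says little about a single cluster.

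In the 439 clusters tested, the H3K18la shift and the log2 ratio of H3K27ac had the same sign in 278 (63.3%), and Spearman's rho was 0.46 across clusters. The clusters are not independent replicates. Over all 1571 tested clusters the sign was the same in 63.8% and rho was 0.44, so the 439 were near the rest. The H3K27ac ratio uses the 3 lists that also gave the scores. The 2 marks come from different libraries, which the study describes as made from the same samples. The clusters of rank 122 and 66 were among those in which both marks stood on the same side.

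**Figure D5:**
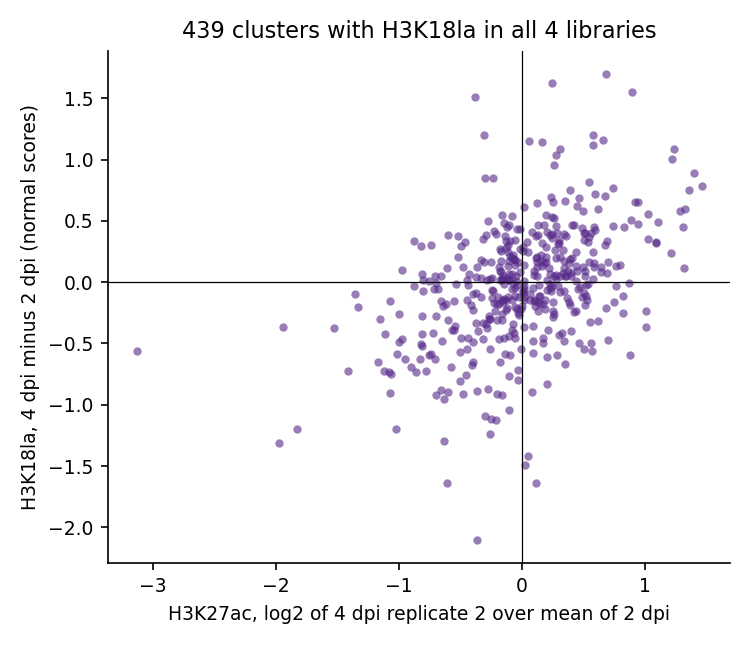
H3K18la shift (normal scores, 4 dpi minus 2 dpi) against the log2 ratio of H3K27ac (4 dpi replicate 2 over the mean of 2 dpi), one point per cluster, for the 439 clusters with H3K18la in all 4 libraries. The points tilt upward (Spearman's rho 0.46) with wide scatter, and 278 of them lie in the lower left or upper right part.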

How the data were processed

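CUT&Tag was done on nuclei of sorted macrophages, with 2 libraries for each of 4 marks and 2 time points. According to the submitters' processing notes, the authors used Trim Galore 0.6.6, Bowtie2 2.4.4, SAMtools 1.13, bedtools 2.30 and SEACR 1.3, and deposited 1 peak list per library. The deposited signal is the summed and the maximum coverage of each peak, with no scaling between libraries, so signal was divided by the total of its list or ranked within it. Read depth is unknown, and no counting interval is given. SEACR lists grow with depth and background.

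Peaks on 21 chromosomes were merged at an overlap of 1 bp. A peak partly inside a region gave signal by the share of its length. Coverage was compared with exact permutation tests, adjusted by Benjamini-Hochberg. Time points were compared with limma 3.58.1 in R 4.3.3 (trended, robust variance), tested on simulated data. The study calls the replicates biological, but the labels do not say which mice or how many gave each library, so p-values measure the spread between these libraries. Names of the H3K27me3 lists at 4 dpi number replicates the other way round, and the labels were followed.

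Named clusters are the 10 highest scores, 3 on each side of the limit, the widest, that with most regions, the 5 lowest p in each direction, and the 5 highest and lowest H3K18la shares. The members, lists and rules were chosen with earlier results of these data known. The study's methods name mm10 for alignment, but 255 peaks lie beyond the GRCm38 chromosome ends, so GRCm39 was used. Gene names, gene lists, marker genes and sequences were planned but not used here, because the only annotation to hand belongs to GRCm38. The study's methods state that blacklisted peaks were removed, and no further blacklist was applied here.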

Additional observations from a re-analysis of the deposited data

Results flagged for a closer look

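The 500 clusters took 2.26% of the summed signal of the H3K27ac 4 dpi replicate 1 list, while the other 3 H3K27ac lists gave 4.27% to 4.40%. This library lay far from the other 3 of its mark, by more than the limit of Dixon's test for 4 values. The 500 clusters were picked by their share in those other 3 lists, so the test cannot separate the library from the rule. No conclusion is drawn from it. It was the library that did not enter the rule, carries another prefix in its name and covered 205 Mb, and what part each has in the gap was not tested. Chance alone marks about 1 in 20 groups of this size, and 11 groups were examined.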

How the results depend on the processing

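Read depth is unknown and every arm of the time comparison has 2 libraries, which limits what a test of single clusters can detect. The 3 coverage differences kept their sign under all stitching, ranking, exclusion and list-length settings except one. Over the whole span in place of the H3K27ac regions, the 500 clusters had 1.31 points less H3K18la than the others (-1.31), since the gaps between stitched regions are then counted. None of the adjusted p-values could pass 0.05 under any setting. Without 1 library at a time, the mark difference ranged from 46.1 to 52.6 points, the H3K18la difference from 8.64 to 9.50 and the H3K27me3 difference from -0.801 to -0.744. With a replicate block, pairing libraries by time and number, the mark difference was 49.5 points with exact permutation p = 0.125. The numbers do not pair H3K18la libraries across time (correlation of deviations -0.07), and with the block in limma 0 clusters and 0 of the 500 were called (206 and 72 at an unadjusted p under 0.05, against 248 and 89 without it).

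The count of clusters called between 4 and 2 dpi, 0, became 5 (2 of the 500) with a stitching gap of 25 kb, 7 (4 of the 500) on the log2 scale, 2 (1 of the 500) with no filter and 11 of 9325 (2 of 716 regions at the 500 clusters, against 0.118% over the genome) when H3K18la regions over the whole genome were tested. With signal of the whole span, added after seeing the data, it was 1 (1 of the 500). It was 0 to 1 without 1 library at a time, and the 1 came without 4 dpi replicate 1. Of the 500 it was then 0 in each case. The called clusters of the 500 were ranks 13, 122, 133 and 134, apart from those of the wider stitching, which has its own ranks. By maximum signal ranks 133 and 134 had a shift of 0, since they hold the same place among the clusters in all 4 libraries, and by mean signal so had rank 134. The cause of the other differences was not tested.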
